A study of Homo sapiens with 8 samples.

Results

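Closely paired CTCF peaks are those peaks of control cells that had another control peak nearby on the chromosome, with a gap of at most 2 kb between the facing edges. They were found by sorting the peak list of control HT1080 cells by position, and 5597 of the 47470 control peaks (11.8%) met the rule. Most of them stood in isolated pairs: 2462 clusters held 2 peaks, 200 held 3, 17 held 4 and 1 held 5. Each control peak was then given a fate from the list of cells treated with CBL0137. It was counted as remained if any base of it overlapped a treated peak and as lost if none did.

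HT1080 is a human fibrosarcoma cell line, grown here either untreated or with 3 µM CBL0137, a curaxin, for 6 h. DNA crosslinked to CTCF was pulled down by an antibody to CTCF, and for each condition 2 replicates of this ChIP DNA and 2 of unprecipitated input DNA were sequenced, 8 libraries in all. Each condition has a single peak list made from its replicates together, so no spread between replicates could be computed, and none of the differences between shares below carries a test. Intervals in parentheses after a share are Wilson 95% intervals, which cover counting error only and treat neighbouring peaks as independent, although both peaks of a pair share their locus and their libraries. The sequencing depth behind single peaks is not in the lists used here.

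CTCF is a zinc finger protein that binds DNA at a long, asymmetric sequence motif, so that each site has a direction along the chromosome. Cohesin, a ring-shaped complex that extrudes chromatin loops, halts at bound CTCF, mostly where the motif points into the loop, and pairs of convergent motifs mark the anchors of many loops and domain borders. Some borders, insulators and promoters carry several CTCF sites close together. Curaxins are small molecules that bind DNA without causing breaks in it.

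The sequence under the pairs is shown first, so that the matches of pairs with different fates can be read beside each other. A match was the best fit, on either strand and within 200 bp of the peak centre, to a 12-base core of the CTCF consensus with at most 1 mismatch. Below are some of the matches found in the pairs of each fate with the highest fold enrichment of ChIP over input in control cells. They are named by the gene they lie in or near. In the RAB3IL1, ACHE and APLN pairs, described further below, only the second peak held a match. These second peaks remained, as did the first peaks at RAB3IL1 and ACHE, whereas the first APLN peak was lost. The RAB3IL1 match was exact, and the matches of these pairs are not printed. The LINC03082 and DAPK2 pairs, which kept no peak, held no match. Each line gives 30 bases 5′ to 3′ on the strand of the match, with the 12 matching bases in capitals and their position in hg19.
Pair in a lncRNA gene on chromosome 9, first peak, remained, chr9:118353956-118353967 (plus strand): gcaaagtgaCCACTAGAGGGAagcaactgc
Pair in a lncRNA gene on chromosome 9, second peak, remained, chr9:118356006-118356017 (plus strand): tgaaatcacCCACTAGATGGTgctgatata
NEURL3 pair, first peak, remained, chr2:97173956-97173967 (minus strand): tgaccgccgCCAGCAGGGGCCgcctcagtc
NEURL3 pair, second peak, remained, chr2:97175305-97175316 (minus strand): cgctgccggCCACCGGGTGGCagtgctggt
FBRSL1 pair, first peak, lost, chr12:132990740-132990751 (minus strand): cccaggtacCCACTAGAGGGTagcagcgct
FBRSL1 pair, second peak, remained, chr12:132991670-132991681 (plus strand): accctctggCCACTAGGGGTCtctcttgct
KCNH1 pair, first peak, remained, chr1:211307564-211307575 (minus strand): ggcacgagcCCGGTAGGGGGCgccgccggc
DENND1A pair, first peak, remained, chr9:126162249-126162260 (minus strand): agacaccagTCAGCAGGGGGCgcggtggag
SLC36A4 pair, second peak, lost, chr11:92970085-92970096 (minus strand): atgaagtagCCAGTAGGTGGGgctcggagg
ADAMTS20 pair, first peak, lost, chr12:43730951-43730962 (minus strand): tggatatatCCACTAGAGGTCatgattgag
In the chromosome 9 pair and the NEURL3 pair, both matches lay on the same strand, and in the FBRSL1 pair they pointed away from each other. The partners of the KCNH1, DENND1A, SLC36A4 and ADAMTS20 peaks shown here had no match in the window searched, which says only that these letters were not found there.

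A further set of matches shows one arrangement repeated along a gene array. The protocadherin alpha genes encode neuronal cell adhesion proteins, each gene starts with its own promoter and variable first exon, and CTCF sites in both places are known to serve in the choice of promoter. Of the 20 closely paired peaks in the protocadherin clusters, 14 made up 7 pairs of a peak near an alpha promoter and a peak in the coding exon downstream. The matches of 6 exon peaks, all of which lay on the plus strand, the strand of transcription, are listed next.
PCDHA4, exon peak, remained, chr5:140187229-140187240 (plus strand): tctcggtttCCACTAGAGGGCgcctcggat
PCDHA5, exon peak, remained, chr5:140201814-140201825 (plus strand): tcgcggtttCCGCTAGAGGGCgcgtcggat
PCDHA6, exon peak, lost, chr5:140208133-140208144 (plus strand): tctgtgtttCCACTGGAGGGCgcgtccgat
PCDHA8, exon peak, remained, chr5:140221363-140221374 (plus strand): tctcggtttCCGCTAGAGGGCgcgtccgat
PCDHA11, exon peak, remained, chr5:140249145-140249156 (plus strand): tcgcgttttCCACTAGAGGGAgcttctgat
PCDHA12, exon peak, remained, chr5:140255514-140255525 (plus strand): tctcattttCCTCTAGAGGGCgcttctgat
The exon peak at PCDHA2 had no match, and neither had any of the 7 promoter peaks. The promoter peak of each pair had a fold enrichment between 9.99 and 26.6 in control cells, and 3 of 7 remained, where 57.1% of all control peaks did. The exon peaks had fold enrichments between 13.1 and 37.3, and 6 of 7 remained. GC content over 500 bp around the peak centre was 34.4% to 40% for promoter and 43.8% to 51.4% for exon peaks. Its part in these fates was not tested.

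Of all 5597 closely paired peaks, 2123 had no overlapping peak in treated cells, a loss of 37.9% (36.7% to 39.2%). Over all control peaks 42.9% were lost, and among the 41873 control peaks with no neighbour within 2 kb 18240 were lost, or 43.6% (43.1% to 44.04%). In these pooled lists, the share lost among paired peaks minus that among other peaks was -5.63 percentage points. Peaks in clusters of 3 or more were lost in 250 of 673 cases, or 37.1% (33.6% to 40.9%). The share of lost peaks was lower among paired than among other peaks on 21 of 23 chromosomes, chromosome 16 (32.6% against 31.5%) and chromosome 20 (37.02% against 36.6%) being the exceptions.

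In control cells, closely paired peaks and other peaks had nearly the same fold enrichment. Paired peaks ranged from 1.47 to 90.4 with a median of 29.0 and quartiles of 19.6 and 39.5. Other peaks had a median of 28.7 and quartiles of 19.8 and 38.4. The median width was 300 bp in both sets. GC content over 500 bp around the peak centre differed more, with a median of 49.6% for paired peaks and 45% for the others. Within the paired peaks, the medians of those that remained were 35.1 for fold enrichment, 350 bp for width and 52.2% for GC content. Those that were lost had medians of 19.6, 200 bp and 46.0%.

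The lower loss among paired peaks was present at every level of control fold enrichment. All control peaks were divided into 10 equal groups by fold enrichment, and in 10 of 10 groups the paired peaks were lost less often, with intervals that did not overlap in 9. In the lowest group, 84.0% of paired and 88.9% of other peaks were lost. In the fourth group from below, with fold enrichments from 21.6 to 25.1, the shares were 47.7% (43.5% to 51.9%) and 55.8% (54.3% to 57.3%). In the highest group, 4.98% (3.53% to 6.99%) of paired and 8.00% (7.21% to 8.87%) of other peaks were lost. With the other peaks weighted to the fold enrichments of the paired ones, the difference was -5.20 percentage points.

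GC content moved with this difference, and its part in it was not tested. Within 5 equal groups by GC content, the difference weighted to the paired peaks was -0.46 percentage points. In the highest GC group, from 55.4%, 22.2% (20.4% to 24.2%) of the 1807 paired peaks and 20.5% (19.7% to 21.5%) of the other peaks were lost. The lowest GC group, up to 38.2%, held 747 paired peaks with a loss of 54.1% (50.5% to 57.6%), against 56.7% (55.7% to 57.7%) of other peaks. Grouped by fold enrichment and GC content together, the weighted difference was -2.10 percentage points, and it was -2.49 percentage points by width alone.

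**Figure D1:**
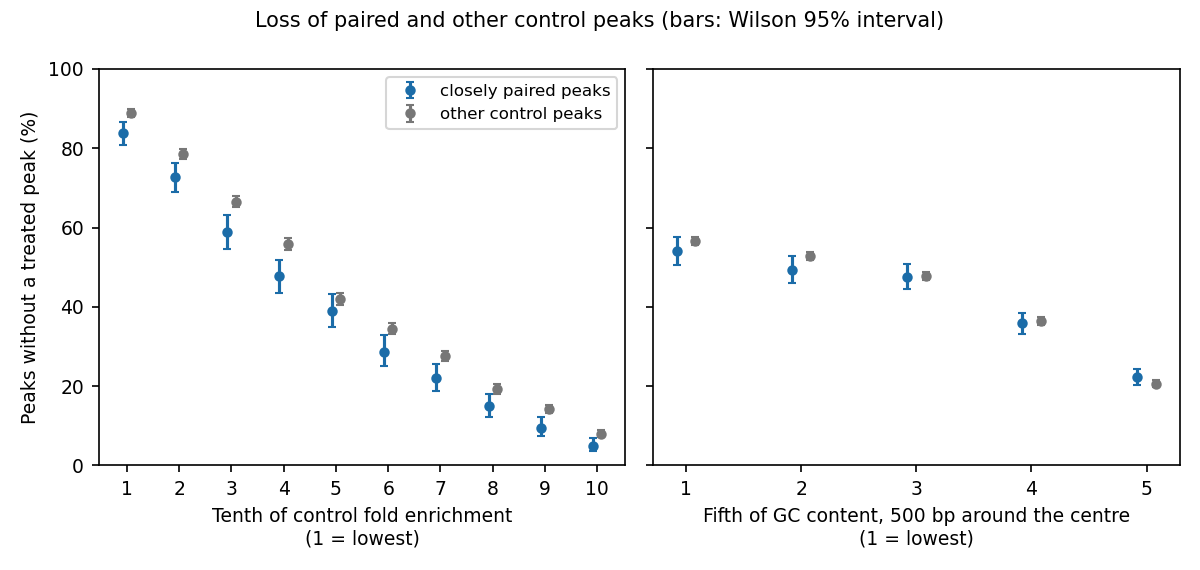
Share of control peaks lost after CBL0137 (%), for closely paired peaks and for all other control peaks, against 10 equal groups of control fold enrichment (left) and 5 of GC content (right), with Wilson 95% intervals as bars. The paired points lie below the others in 10 of 10 fold groups, while in the highest GC group they lie above them, at 22.2% against 20.5%.

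The share lost did not change stepwise at a gap of 2 kb. It was 37.9% where the nearest control peak lay at most 2 kb away, 37.3% at 2 to 5 kb and 38.6% at 5 to 10 kb, with overlapping intervals. Beyond that it was higher with each class of distance, with 41.6% at 10 to 20 kb, 46.3% at 20 to 50 kb, 50.6% at 50 to 100 kb and 57.7% (55.6% to 59.8%) above 100 kb. Over the same classes the median GC content went from 49.6% to 41.0% and the median fold enrichment from 29.0 to 26.6. In the highest GC group, 22.2% of peaks were lost with a neighbour within 2 kb, 19.2% with the nearest neighbour at 2 to 10 kb and 21.6% with none within 10 kb.

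Closely paired peaks lay at promoters more often than others. A peak was counted at a promoter if its centre lay at most 1 kb from the annotated start of a protein-coding gene. A single start was taken per gene, so other transcript starts were not counted. Of the paired peaks on the reference chromosomes, 652 (11.7%, 10.8% to 12.5%) lay at a promoter, against 6.11% (5.88% to 6.34%) of the others. Promoters were assigned first, so a peak in an exon, intron or intergenic sequence near such a start was counted only as a promoter peak. Coding exons outside promoters held 3.36% of paired and 2.16% of other peaks, introns 49.5% and 54.3%, and intergenic sequence 29.8% and 33.2%. At promoters, 28.8% (25.5% to 32.4%) of paired and 27.8% (26.1% to 29.6%) of other peaks were lost. In intergenic sequence 37.8% (35.5% to 40.2%) of paired and 44.9% (44.1% to 45.8%) of other peaks were lost, and in introns 40.8% and 45.5%. Pairing was most frequent on the gene-rich chromosomes 19 and 17, where 18.7% and 17.0% of control peaks were paired, and least frequent on chromosome 13, with 8.20%.

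Among the 2462 pairs, both peaks remained in 994, or 40.4% (38.5% to 42.3%). Exactly 1 peak remained in 1063, or 43.2% (41.2% to 45.1%), and no peak remained in 405, or 16.5% (15.0% to 17.97%). Neighbouring control peaks farther apart than 2 kb, 44519 in number, both remained in 34.1%, kept 1 peak in 45.3% and kept none in 20.6% of cases. For the 3703 neighbours at 2 to 5 kb the shares were 41.3%, 42.8% and 15.9%, which lie within the intervals of the pairs, whereas for the 7745 neighbours over 100 kb apart they were 24.6%, 47.1% and 28.2%.

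**Figure D2:**
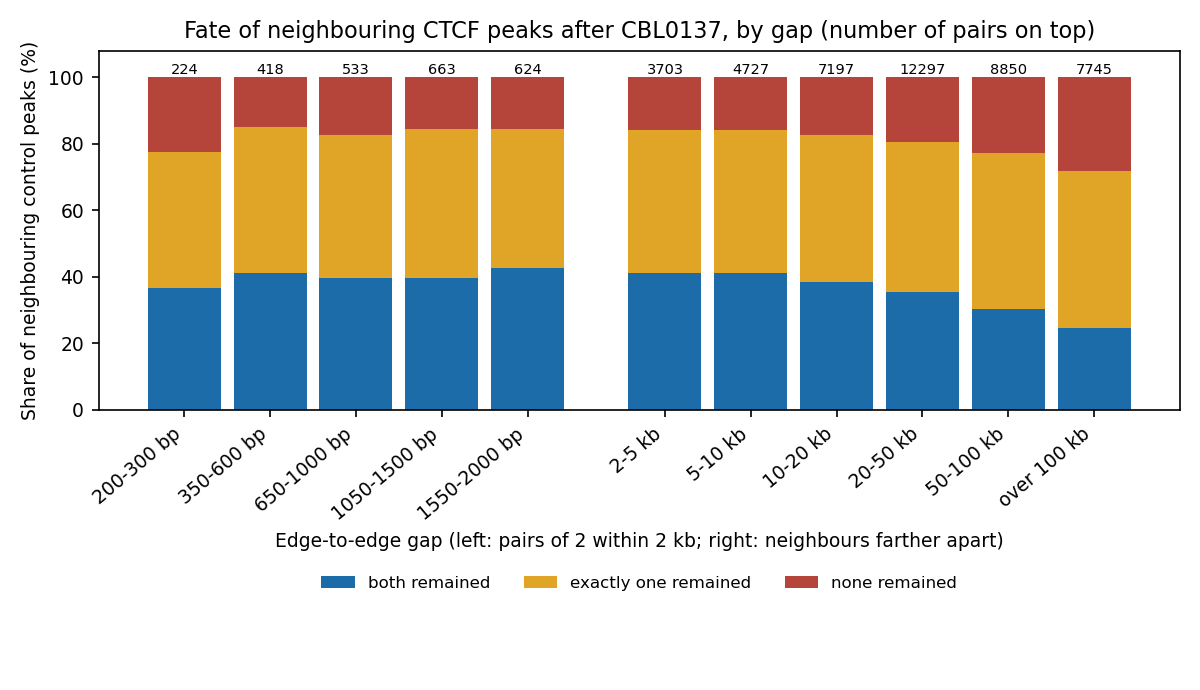
Fates of neighbouring control peaks (% of pairs) by the gap between their edges, for pairs within 2 kb (left) and neighbours farther apart (right). The share with both peaks remaining is 36.6% to 42.6% in the classes within 2 kb and 24.6% above 100 kb.

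Within the pairs the fates varied little with the gap. The gaps were multiples of 50 bp, since the peak edges of the list are, and ran from 200 bp upwards with a median of 1050 bp. In the 224 closest pairs, at 200 to 300 bp, both peaks remained in 36.6% (30.6% to 43.1%) and none in 22.3% (17.4% to 28.2%). At 350 to 600 bp the shares were 41.1% (36.5% to 45.9%) and 15.1% (11.96% to 18.8%), and at 1550 to 2000 bp 42.6% and 15.5%. At the limit of the rule, the 61 neighbours with a gap of exactly 2000 bp, which were counted as paired, had a median fold enrichment of 33.2, and 35, 23 and 3 of them kept both, 1 and no peak. The 65 neighbours at 2050 bp, just outside it, had a median of 33.6, and the corresponding numbers were 28, 25 and 12. One step farther from the limit the order turned, with 27, 27 and 13 of the 67 neighbours at 1950 bp, inside it, and 24, 28 and 4 of the 56 at 2100 bp, outside it.

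Taken over all pairs, the fate of a peak was weakly tied to that of its partner. Where the first peak of a pair along the chromosome remained, the second remained in 994 of 1513 cases, or 65.7% (63.3% to 68.0%). Where the first was lost, the second remained in 544 of 949 cases, or 57.3% (54.2% to 60.4%), which is 8.37 percentage points fewer. Neighbours farther apart than 2 kb showed a difference of 7.82 percentage points and those at 2 to 5 kb one of 8.48. The closest pairs, at 200 to 300 bp, had the widest gap between the shares, 64.6% (55.9% to 72.3%) against 48.5% (38.8% to 58.3%), although these intervals overlap. Within classes of the mean GC content of the pair, the difference lay between -0.93 and 11.1 percentage points. By control fold, it was 14.3 percentage points in pairs with both folds above the median of all control peaks. It was -14.9 with 1 fold above the median and 3.88 with none. For neighbours farther apart than 2 kb these differences were 8.31, -14.9 and 5.35, in the same order.

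GC content and control fold enrichment both separated the fates of pairs. In the 404 pairs with a mean GC content under 40%, both peaks remained in 20.05% (16.4% to 24.2%) and none in 29.95% (25.7% to 34.6%). In the 433 pairs with 60% or more, both remained in 60.7% (56.1% to 65.2%) and none in 6.00% (4.13% to 8.65%). Of the 681 pairs with both folds above the median of all control peaks, 28.7, both peaks remained in 73.3% (69.8% to 76.5%) and none in 4.26%. Of the 633 pairs with no fold above it, both remained in 15.3% (12.7% to 18.3%) and none in 39.3%. The 1148 pairs with 1 fold above it most often kept a single peak, in 54.3% (51.4% to 57.1%). Neighbours farther than 2 kb apart showed the same order by fold. Of these, both peaks remained in 65.6% with both folds above the median and in 12.4% with none above it. With 1 fold above it, 56.4% kept a single peak.

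In the pairs that kept a single peak, it was usually the one with the higher control fold enrichment. This was so in 885 of 1063 pairs, or 83.3% (80.9% to 85.4%), and in 81.7% (81.2% to 82.3%) of the neighbours farther than 2 kb apart that kept 1 peak. The peaks that remained had a median fold of 34.2 and were 350 bp wide at the median, and their lost partners 18.9 and 200 bp. The share depended on how unequal the peaks were. With folds within 1.25 times of each other the higher peak remained in 120 of 201 pairs (59.7%, 52.8% to 66.2%), with a ratio of 1.5 to 2 in 82.6% (77.3% to 86.8%), and with a ratio of 3 or more in 182 of 183 pairs (99.5%, 97.0% to 99.9%). Position along the chromosome separated them little, as the peak with the lower coordinate was the one that remained in 519 of 1063 pairs, or 48.8% (45.8% to 51.8%).

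**Figure D3:**
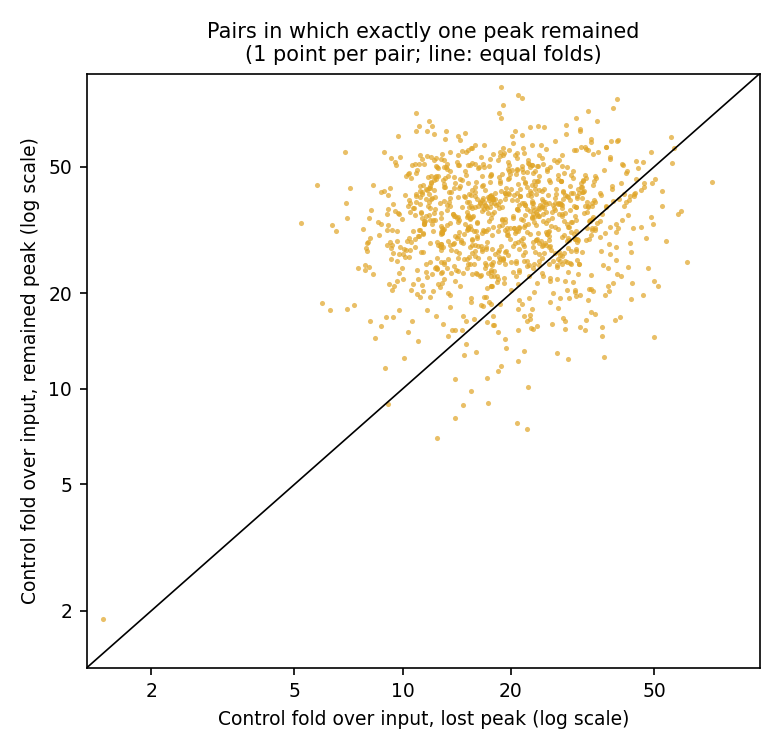
Control fold enrichment over input of the remained peak (y, log axis) against that of the lost peak (x, log axis) in the 1063 pairs that kept a single peak, 1 point per pair, with a line of equal folds. Above the line lie the 885 pairs in which the peak with the higher fold remained.

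The consensus match went with the remaining peak too. Of 5595 paired peaks, 2730 (48.8%) held a match, as did 49.0% of the other control peaks, while windows 10 kb away from the paired peaks held one in 3.82% (3.35% to 4.36%). Paired peaks with a match were lost in 23.4% (21.9% to 25.1%) and those without in 51.7% (49.9% to 53.6%), against 28.1% and 58.4% among the other peaks. Among the pairs that kept a single peak, 451 had a match in the remaining peak only and 131 in the lost peak only. The holder of the match thus remained in 77.5% (73.9% to 80.7%) of these 582 pairs. Where it also had the higher fold it remained in 390 of 417 pairs (93.5%, 90.7% to 95.5%), and where it had the lower fold in 61 of 165 (36.97%, 29.98% to 44.6%). With folds within 1.25 times of each other the holder remained in 82 of 114 pairs (71.9%, 63.1% to 79.4%).

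Counted per pair, both peaks held a match in 597 of 2461 pairs, 1 peak in 1230 and neither in 634. Both peaks remained in 59.3% (55.3% to 63.2%), 39.5% (36.8% to 42.3%) and 24.3% (21.1% to 27.8%) of these, in that order. No peak remained in 7.04%, 13.2% and 31.7%. This order was not particular to close pairs. Of 44504 neighbours farther apart than 2 kb, 10883 held a match in both peaks, 21881 in 1 and 11740 in neither. Both of these distant peaks remained in 54.1%, 32.2% and 19.3%, and none in 9.30%, 17.5% and 36.9%. No match was shared by the windows of both peaks in any of the 597 pairs.

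Matches within a pair lay on the same strand more often than those of distant neighbours. In the 597 pairs with a match in each peak, 342 (57.3%, 53.3% to 61.2%) had both on the same strand, as in the chromosome 9 and NEURL3 pairs printed above. Another 118 (19.8%, 16.8% to 23.1%) were convergent and 137 (22.9%, 19.8% to 26.5%) divergent, like the FBRSL1 pair. Neighbours farther apart than 2 kb were on the same strand in 49.96% (49.02% to 50.9%), and those at 2 to 5 kb in 54.1% (50.9% to 57.2%), an interval that overlaps that of the pairs. Convergent matches made up 17.6% (15.3% to 20.1%) at 2 to 5 kb and 32.0% (29.9% to 34.1%) above 100 kb. The fates of pairs did not separate by orientation, since both peaks remained in 59.4% (54.1% to 64.4%) of the same-strand, 62.7% (53.7% to 70.9%) of the convergent and 56.2% (47.8% to 64.2%) of the divergent pairs.

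**Figure D4:**
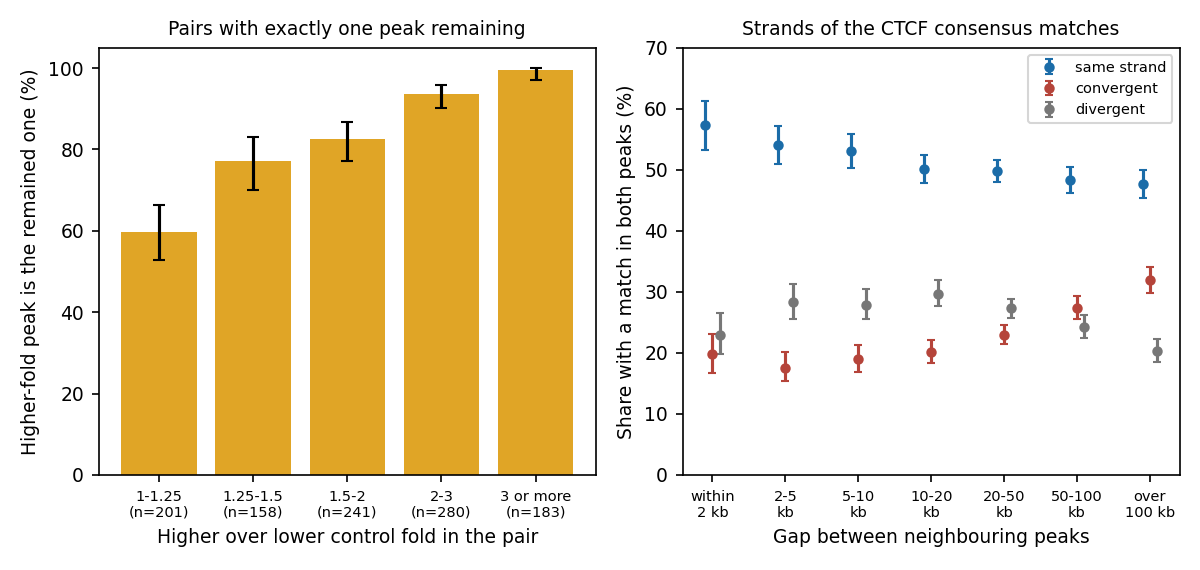
Left, share of the pairs that kept a single peak in which it was the one with the higher control fold (%), by the ratio of the folds. Right, orientation of the matches (% of pairs with a match in both peaks) by the gap between neighbouring peaks, both with Wilson 95% intervals. The bars go from 59.7% at ratios under 1.25 to 99.5% at 3 or more. Same-strand matches make up 57.3% of pairs within 2 kb and 47.7% of neighbours over 100 kb apart, and convergent ones 19.8% and 32.0%.

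Some pairs repeat the same sequence. The 30 bases around the matches were identical at 24 or more positions in 19 of the 597 pairs, or 3.18% (2.05% to 4.92%), against 54 of 10883 distant neighbours with a match in each, or 0.50% (0.38% to 0.65%). This limit was chosen after the sequences were seen. In 6 pairs all 30 bases were the same. Of these 6 pairs, 5 kept both peaks and 1 kept a single peak, and of the 19 pairs, 13 kept both, 4 kept 1 and 2 kept none. The 6 pairs with identical windows are given as 1 sequence with both positions, followed by 2 similar pairs in introns of ZNF630, a zinc finger gene, and TENM4, a gene for a teneurin adhesion protein.
Chromosome 6 pair, both remained, chr6:20528748-20528759 (minus strand) and chr6:20529507-20529518 (minus strand): ataatttaaCCACTAGGGGTCagagtgcta
Chromosome 12 pair, both remained, chr12:562242-562253 (plus strand) and chr12:562668-562679 (plus strand): ggtttgccgCCCGCAGGGGGCgctgcggtg
Chromosome 7 pair, both remained, chr7:302901-302912 (plus strand) and chr7:303855-303866 (plus strand): cagtgccaaCCAGCAGGGGGCacaggacag
Chromosome 9 pair A, both remained, chr9:998591-998602 (minus strand) and chr9:998983-998994 (minus strand): ctccactagCCTCCAGGGGGCagcagagcc
Chromosome 9 pair B, both remained, chr9:115873828-115873839 (minus strand) and chr9:115875294-115875305 (plus strand): tcccaacggCCAGCAGAGGGCgcgcgcctg
Chromosome 9 pair C, second peak only remained, chr9:140339061-140339072 (plus strand) and chr9:140339897-140339908 (minus strand): ccagaaccaCCACTGGGGGGCatacgtgtg
ZNF630 pair, both remained, first peak, chrX:47885212-47885223 (minus strand): aataaatgaCCACAAGGTGGCgtagcacaa
ZNF630 pair, both remained, second peak, chrX:47886194-47886205 (minus strand): attatatgaCCACAAGGTGGCgtagcacaa
TENM4 pair, none remained, first peak, chr11:78870892-78870903 (minus strand): gagctttggCCAGCAGGTGGTggaagagga
TENM4 pair, none remained, second peak, chr11:78872039-78872050 (minus strand): atgctttagCCAGTAGGTGGTggaagagga
At the chromosome 6 pair the control folds were 31.8 and 32.3, and the treated folds 36.7 and 40.2. The chromosome 12 pair had control folds of 21.2 and 37.9 and treated folds of 27.3 and 52.0, so that the second peak was the higher in both lists. In chromosome 9 pairs B and C the identical windows lay on opposite strands. Pair B kept both peaks, with control folds of 22.7 and 15.5 and treated folds of 34.7 and 18. In pair C the first peak, at a control fold of 28.0, was lost, and the second, at 39.6, remained with a treated fold of 16.2. The TENM4 peaks, at control folds of 15.7 and 30.3, were both lost. Folds of the control and treated lists come from separate calls, and were not divided by each other.

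Pairs that kept both peaks kept them as separate peaks. A single treated peak covered both control peaks in 8 of 994 such pairs (0.80%), including 2 among the immunoglobulin heavy chain variable genes. Of the other 986 pairs, the peak with the higher fold was the same in both lists in 649, or 65.8% (62.8% to 68.7%). This share was 48.4% (43.1% to 53.7%) where the control folds were within 1.25 times of each other and 96.1% (86.8% to 98.9%) at a ratio of 3 or more. The higher peak of these pairs had a median control fold of 42.5 and the lower one of 28.7, whereas in the pairs that kept none the medians were 26.1 and 15.4.

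The pairs of highest fold in each class show the range of outcomes. The first pair that kept both lies in an intron of a lncRNA gene, ENSG00000228714, on chromosome 9, where the peaks at chr9:118353801-118354100 and chr9:118355851-118356150 had control folds of 64.1 and 64.4 and treated folds of 33.4 and 12.8. Both overlapped sites of the deposited comparison of conditions that are higher in control cells. In RAB3IL1, which encodes an exchange factor for RAB3A, the peaks at chr11:61665101-61665550 in an untranslated region and chr11:61666401-61666950 in an intron had control folds of 63.8 and 63.4 and treated folds of 59.3 and 75.7. At ACHE, the gene of acetylcholinesterase, an intronic peak at chr7:100492251-100492950 and a promoter peak at chr7:100494751-100495100 had control folds of 63.1 and 62.5 and treated folds of 41.4 and 49.1. These ACHE peaks lay at sites higher in control and higher in treated cells, in that order. The NEURL3 pair, at chr2:97173801-97174150 and chr2:97175151-97175450, had control folds of 65.6 and 62.4 and treated folds of 59.7 and 37.7.

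Pairs of similar strength could still be split. Nearest to APLN, which encodes the peptide ligand apelin, the intergenic peaks at chrX:128739451-128739750 and chrX:128741001-128741250 had control folds of 56.9 and 57.3, and the second remained with a treated fold of 35.8. At the promoter of KCNH1, a voltage-gated potassium channel gene, the peak at chr1:211307301-211307850 had a control fold of 62.1 and a treated fold of 75.2, and its partner at chr1:211308701-211309050, with a control fold of 55.6, was lost. The GC content was 71.0% at the KCNH1 peak that remained and 36.6% at the lost one. In an intron of DENND1A, the peak with the lower fold was the one that remained: chr9:126162051-126162450, which holds the match printed above, had a control fold of 51.5 and a treated fold of 57.0, and chr9:126164201-126164550, with no match, had a control fold of 56.1 and was lost. In the FBRSL1 pair both peaks hold a match, and chr12:132990551-132990950, at a control fold of 48.9, was lost while chr12:132991451-132991900, at 55.5, remained with a treated fold of 38.4.

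Among the pairs that kept none, the peaks nearest to SLC36A4, an amino acid transporter gene, at chr11:92967851-92968150 and chr11:92970001-92970200, had control folds of 40.7 and 40.1. Those nearest to ADAMTS20, a metalloprotease gene, at chr12:43730801-43731100 and chr12:43732751-43733050, had control folds of 37.5 and 48.5. In an intron of LINC03082 the peaks at chr13:110760451-110760800 and chr13:110761201-110761600 had control folds of 36.5 and 49.3. In an untranslated region of DAPK2, a death-associated kinase gene, the peaks at chr15:64208301-64208550 and chr15:64208751-64209000 had control folds of 45.5 and 36.3 and lay 200 bp apart, the smallest gap in the list. All 8 peaks of these 4 pairs overlapped a deposited site higher in control cells. So did 640 of the 810 peaks (79.0%) of all pairs that kept none. The share was 78.4% of all lost control peaks and 51.2% of all control peaks.

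**Figure D5:**
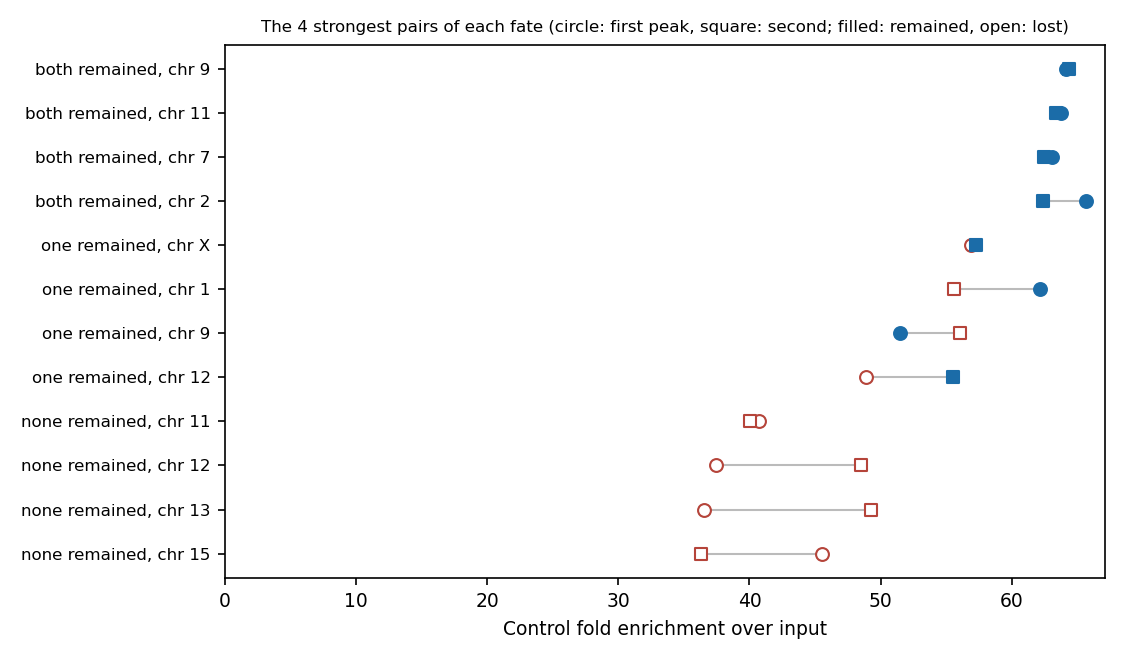
Control fold enrichment over input (x) of both peaks of the named pairs, 4 of each fate (rows), with filled symbols for remained and open ones for lost peaks, circles for the first and squares for the second peak along the chromosome. The named pairs that kept both lie between 62.4 and 65.6, and those that kept none between 36.3 and 49.3. They were picked for high control fold within each fate, so these ranges do not describe all pairs.

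The deposited comparison of the conditions gave a second reading of the same libraries, which is not independent of the peak lists. A site higher in control cells overlapped 46.4% (45.1% to 47.7%) of the closely paired peaks and 51.2% of all control peaks. Such a site overlapped 75.2% of the lost and 28.9% of the remained paired peaks. Over all control peaks it overlapped 78.4% of the lost and 30.8% of the remained ones. Sites higher in treated cells overlapped 185 paired peaks, or 3.31% (2.87% to 3.81%), against 2.41% of all control peaks. In the pairs that kept a single peak, 72.5% (69.8% to 75.1%) of the lost peaks and 35.1% (32.3% to 38.01%) of the remaining partners overlapped a site higher in control cells. Of the 994 pairs that kept both peaks, 565 (56.8%) had no such site at either peak and 84 (8.45%) had one at each.

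Clusters of 3 peaks mostly kept some but not all of them, where 57.1% of all control peaks remained. Sets of 3 neighbouring peaks farther apart were not counted, so the shares below cannot be called particular to close clusters. Of the 200, 55 kept all 3 peaks, 83 kept 2, 52 kept 1 and 10 kept none. Outer peaks were lost in 37.5% (32.9% to 42.3%) and middle peaks in 33.5% (27.3% to 40.3%) of cases, with overlapping intervals. Over all control peaks 42.9% were lost. In the 135 clusters that kept 1 or 2 peaks, the peak of highest fold remained in 115 (85.2%, 78.2% to 90.2%) and that of lowest fold in 23 (17.0%, 11.6% to 24.3%). Of the 17 clusters of 4, 1 kept all its peaks, 5 kept 3, 7 kept 2 and 4 kept 1. The 1 cluster of 5, on chromosome 8, kept 3.

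The clusters named here, chosen with chromosome 8 left out, held 4 peaks each. In introns of SPTB, which encodes a beta spectrin of the membrane skeleton, the outer peaks at chr14:65226901-65227350 and chr14:65231301-65231850 had control folds of 40.5 and 56.2 and remained with treated folds of 63.8 and 46.6. The inner SPTB peaks, with control folds of 32.4 and 9.50, were lost. Both outer peaks hold an exact consensus match, on opposite strands. In introns of BCL6, a gene for a transcriptional repressor of germinal centre B cells, the peaks from chr3:187456651 to 187460200 had control folds of 40.1, 28.0, 18.998 and 46.5. The first BCL6 peak was lost although its fold was higher than those of the next peaks along, which remained with treated folds of 34.8 and 36.0, and the last remained with 23.1. Near NPL, which encodes a sialic acid lyase, the control folds were 31.5, 21.8, 44.99 and 40.2, and only the second peak was lost. The third of these NPL peaks had a treated fold of 6.79.

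Loci known for arrays of CTCF sites differed in how many of their sites were closely paired. The clustered protocadherins (chr5:140165721-140892542) held 61 control peaks, of which 42 remained. Of the 20 that were closely paired, 13 remained. At PCDHA8 the promoter peak had a control fold of 26.6 and a treated fold of 12.4, and the exon peak 30.1 and 50.2. At PCDHA12 the promoter peak, with a control fold of 17.5, was lost and the exon peak, with 37.3, remained at 34.6. At PCDHA11 the exon peak, with the lower control fold of 13.1, remained while the promoter peak, with 21.8, was lost, and at PCDHA6 the exon peak was the one lost. Over the 7 alpha pairs, 2 kept both peaks, 5 kept 1 and 0 kept none. These 7 pairs were singled out after their values were seen.

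The immunoglobulin heavy chain variable genes held 38 control peaks, of which 36 remained, and 7 of the 8 paired ones did. Of 42 peaks among the lambda variable genes 33 remained, and of the 6 paired ones 3 did. The imprinted H19 locus, with 10 kb on each side, held 1 pair, which kept 1 peak. KCNQ1, another imprinted gene, held 1 pair, and both of its peaks remained. In the HOX clusters of developmental transcription factors, 6 of 10 HOXA peaks remained but neither of the 2 paired ones, 4 of 7 HOXC peaks remained and 1 of the 2 paired ones, and HOXB and HOXD had 0 among 11 and 6 control peaks. The span of DANT2, searched for the DXZ4 macrosatellite region of the X chromosome, held 5 control peaks, of which 2 remained. Its 2 paired peaks, which the annotation places in an intron of DANT1, were both lost, and FIRRE had 0 paired peaks among 2. Each of these loci held few pairs, and over all control peaks 57.1% remained.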

How the data were processed

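CTCF ChIP-seq and input libraries of control and CBL0137-treated HT1080 cells were assigned to groups by their labels. The authors used Bowtie2 2.2.3 to map reads to hg19, discarded those flagged as not uniquely mapped, and filtered duplicates with SAMtools 1.5, and deepTools 2.0 is named in the submitters' processing notes. Peaks were called by the authors with PePr in 100 bp windows on both replicates of a condition together. The deposited lists have no column headings and give for each peak coordinates, a fold enrichment (a ratio of ChIP over input), a p-value with an FDR, and a display score, which was not used. A cutoff of 0.05 on the p-value is stated by the authors, whereas the largest p-value in the deposited control and treated lists was 9.999e-06. Of the 2 lists from the authors' comparison of the conditions, which hold folds and p-values of that comparison, only the positions were used. Filtering changes which repeats can carry a peak, and a called peak depends on a threshold, so a lost peak is one no longer called, not one measured at 0.

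Control peaks were sorted, joined into clusters at gaps of at most 2 kb, and overlapped with treated peaks in Python 3.11.15 with pandas 2.3.3 and numpy 2.4.6, pysam 0.24.0 and samtools 1.23.1 for sequence, scipy 1.17.1 for intervals and matplotlib 3.10.9 for figures. Sequence and genes came from GRCh37 and GENCODE v44lift37; no peak lay beyond a chromosome end, and 26 control peaks on other contigs, 2 of them paired, were left out of measures that need them. The routines were tested on 10000 simulated peaks and 2000 implanted matches, with 100.0%, 100.0% and 99.95% placed correctly. The named pairs were the 4 of each fate with the highest lower fold, the named clusters the 3 with the most peaks (ties by summed fold), both without chromosome 8, whose sequences are not reported here, and the loci a fixed list of known CTCF arrays. The members, lists and rules were chosen with earlier results of these data known. No per-replicate values were used here, so no test was run. Other gap limits, overlap rules, thresholds and measures of strength were tried.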

Additional observations from a re-analysis of the deposited data

How the results depend on the processing

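The lists pool the replicates and depth per peak is not in them, so results without replicate 1 or replicate 2, or with a replicate block, were not run. No paired analysis was possible because the files used here pool the replicates. The loss of paired peaks was below that of other peaks under all 8 alternatives, with differences from -7.12 to -4.61 percentage points. None of these alternatives balanced GC content, and within groups of GC content the weighted difference was -0.46 percentage points. Of 61 alternative values 41 stayed within the 95% interval of the reported share or, for counts, within 1.5 times the reported count. The number of paired peaks was 2757 at a gap limit of 1 kb, 12122 at 5 kb (other peaks then lost 44.7%) and 3071 at an FDR of at most 1e-05. That FDR limit gave 44.6% of other peaks lost and 76.1% of split pairs keeping the higher-fold peak, and a fold of at least 10 gave 44.2% of other peaks lost. With overlap of over 50% of the larger peak required, 46.6% of paired and 51.2% of other peaks were lost, and 30.4%, 45.8% and 23.8% of pairs kept both, 1 and no peak. Ranked by width, the wider peak remained in 90.4% of the 977 split pairs of unequal width, which leaves out 86 of equal width. An alternative chosen after seeing the data shortened the control list by fold to the length of the treated list. It left 2329 paired peaks, with 18.9% of paired and 25.1% of other peaks lost, and 67.9%, 26.5% and 5.57% of pairs kept both, 1 and no peak. The higher-fold peak then remained in 70.6% of split pairs. The causes of these shifts were not tested.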

Other observations

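The list of treated cells held its own close pairs. Of its 29558 peaks, 3002 (10.2%) had another treated peak within 2 kb, in 1448 clusters. In 948 of the control pairs, the peaks overlapped separate treated peaks of the same treated cluster. Arisen peaks, which overlapped no control peak, numbered 2386, and 357 of them (15.0%) had another treated peak within 2 kb, against 9.73% of the other treated peaks. Within 2 kb of a control peak lay 394 arisen peaks (16.5%), of which 47 were near a closely paired one. Of all control peaks, 11.8% were closely paired. An arisen peak was present in 315 of the 1448 treated clusters.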
